A study of Homo sapiens with 4 samples.

Results

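The mitochondrial ribosome makes the few proteins that are encoded in mitochondrial DNA, all of them core parts of the respiratory chain or of ATP synthase. Its ribosomal RNAs are mitochondrial transcripts, but its proteins are encoded in the nucleus, made in the cytosol and imported. Part of them descend from proteins of the bacterial ribosome, and the rest were added during the evolution of mitochondria. Proteins of the large subunit, which forms the peptide bond, carry names starting with MRPL, and those of the small subunit, which decodes the mRNA, names starting with MRPS. Epithelial cells depend on this supply for oxidative ATP production.

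The genes described here are those whose annotated symbol is MRPL or MRPS followed by digits and an optional letter, measured by a probe set annotated to that symbol alone. Each was represented by its probe set with the highest mean over the 4 arrays. The rule gave 75 genes of the 16252 tested, from 140 probe sets, and all 75 had a probe set above the level filter (a mean log2 level of 6.06, the 30 percentile of all probe sets). By structure 50 belong to the large subunit, counting MRPS30 and MRPS18A, which sit there despite their names, and 25 to the small subunit. Counterparts in the bacterial ribosome exist for 45 of them, 28 are specific to mitochondria, and 2 (MRPL55 and MRPL58) were left unclassed.

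RNA came from MKN45, an established human gastric adenocarcinoma line of epithelial type. One group was given fresh medium only (untreated, 2 arrays) and the other medium with lipopolysaccharide (LPS) of the stomach bacterium Helicobacter pylori at 10 µg/ml (LPS, 2 arrays), and both were harvested after 8 h. LPS is the glycolipid of the outer bacterial membrane and activates innate immune receptors. The line, the medium and the harvest time were shared by both groups, and each group rests on a single cell line. The series describes 2 independent experiments, and the p-values measure the spread between these arrays only.

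Array medians were 7.004 to 7.034 on the log2 scale and pairs of arrays correlated at r = 0.996 to 0.998 over probe sets, which are not independent replicates. Of 8 epithelial markers 7 passed the level filter, with KRT18, KRT8, EPCAM, KRT19 and CDH1 at 13.12 to 14.64. ELF3 lay at 10.22 untreated and 10.27 with LPS, CLDN4 at 9.49 and 9.53, and KRT20 lay under the filter. Of 4 leukocyte markers PTPRC and CD14 lay under the filter too, while CD3E (7.90 in both groups) and ITGAM (6.71 untreated, 6.77 with LPS) passed it, and the list had a median of 6.14 in both groups. All 7 fibroblast and endothelial markers passed it, from 6.20 to 9.21, with COL1A1 the brightest, and had medians of 7.52 untreated and 7.72 with LPS. The part of such cells in the results was not tested. All 24 probe sets of poly-A spike-in transcripts, which are added to the RNA before labelling, had both LPS values under both untreated values, with a mean difference of -0.48, and their part in the results below was not tested. With bulk RNA, a change in RNA per cell and a change in the makeup of the culture cannot be told apart.

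Promoter sequences are shown first, because motifs of GABP, YY1 and NRF1 were found in a larger share of these promoters than of all promoters. So were the E-box and kappa B motifs given below, and no motif was found in all of these promoters. GABP, NRF1 and YY1 are transcription factors known for driving nuclear genes of mitochondrial proteins. RefSeq windows of assembly GRCh38.p14, from 250 bases before to 50 after a gene's start, were found for 67 of the 75 genes, 83 windows in all, since 11 genes have several. The GABP core CCGGAAG was present in 38.6% of the 83 windows, on either strand, against 10.3% of all 35116 windows and 12.8% of those of protein-coding genes. The YY1 motif AAGATGGC was present in 26.5%, against 2.89% of all windows and 3.53% of coding ones. The palindromic NRF1 motif was present in 12.05%, against 5.78% and 7.39%. The E-box motif (CACGTG) was present in 10.8%, against 7.26% of all windows and 8.34% of coding ones. A TATA box (TATAAA) was present in 3.61%, against 11.5% of all windows. The kappa B motif, the site of the transcription factor NF-kB that LPS receptors activate, was present in 7.23% of the windows of these genes and in 5.91% of all windows. GABP and YY1 motifs stood together in 10 windows and overlapped in 0. Of the 67 genes, 46 had at least 1 of the GABP, YY1 and NRF1 motifs. A match describes the letters and is no evidence of binding.

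GABP cores are shown for 5 of the genes described individually below. They come from the first listed window of each gene, where the core and 10 bases on each side lay before the start. They are read in the direction in which the motif is spelled, with the motif in capitals.

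MRPS31: aggcgccaggCCGGAAGcggaagagag

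MRPS26: ccaccgtgccCCGGAAGcggcgcgggg

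MRPS10: cgctgtaaccCCGGAAGcaatcctgag

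MRPL58: cgagctgctaCCGGAAGagtgccccga

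MRPL38: acgcccggctCCGGAAGtgcccgttgg

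These lie at chr13:40771206-40771232 (minus strand), chr20:3046005-3046031 (minus), chr6:42217867-42217893 (minus), chr17:75012467-75012493 (minus) and chr17:75905076-75905102 (plus). The first 4 belong to genes with lower values in LPS-treated cells and the last to a gene with a higher one. Windows of MRPS33 and MRPS12, with higher values, and of MRPL30 and MRPL47, with lower ones, also held a GABP core. These cores are not shown. NRF1 motifs upstream of named genes are shown in the same way, and they too belong to genes on both sides of 0.

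MRPL45: ttgtctccctGCGCACGCGCggccgtactc

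MRPS33: tagccttactGCGCAGGCGCcaggtacacc

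MRPS9: cctagagacgGCGCAGGCGCtaatggcgcg

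Their positions are chr17:38296969-38296998 (plus strand), chr7:141015088-141015117 (minus) and chr2:105038019-105038048 (minus). The YY1 motif of MRPS12 lies at chr19:38930722-38930749 (minus strand).

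MRPS12: ttcccggtccAAGATGGCtgcgtccatg

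The 250 bases before the start are given for the genes at both ends of the order of differences, MRPS31 (lowest, chr13:40771191-40771440, minus strand) and MRPS2 (highest, chr9:135500432-135500681, plus strand, the first of 2 windows listed for it). The GABP core is in capitals, and neither stretch held a YY1 or NRF1 motif as spelled.

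MRPS31: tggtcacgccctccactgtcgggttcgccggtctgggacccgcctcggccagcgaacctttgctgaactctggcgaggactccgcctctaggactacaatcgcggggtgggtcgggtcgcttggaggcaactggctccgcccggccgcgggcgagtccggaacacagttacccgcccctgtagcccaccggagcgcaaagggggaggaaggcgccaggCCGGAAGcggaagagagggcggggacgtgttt

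MRPS2: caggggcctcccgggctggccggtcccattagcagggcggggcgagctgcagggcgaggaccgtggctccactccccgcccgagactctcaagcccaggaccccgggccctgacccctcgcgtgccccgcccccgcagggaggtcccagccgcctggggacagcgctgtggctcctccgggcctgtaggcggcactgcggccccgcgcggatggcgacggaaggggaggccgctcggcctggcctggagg

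Comparing the groups addresses how these transcripts stood after 8 h of exposure to H. pylori LPS. None of the 75 genes passed an adjusted p under 0.05 in limma, where 0.0246% of all genes passed (4 of 16252). The smallest adjusted p among the 75 was 0.303, for MRPS31. Differences, given here as LPS minus untreated on the log2 scale, ran from -0.26 to 0.19. Their 95% intervals, taken gene by gene, lay between -0.41 and 0.36, so that no interval reached a 1.5-fold change in either direction. This holds for the probe set with the highest mean of each gene. Fainter probe sets of some genes, given below, differed by more, down to -0.56 for MRPS5. The median interval reached 0.14 to either side of the estimate.

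An unadjusted limma p under 0.05 was reached by MRPS2, MRPL38 and MRPL37 with values above 0 (3 members) and by MRPS31, MRPL19 and MRPS9 with values under 0 (3 members). Among all genes 3.72% were higher and 7.91% lower by that measure, so 3 of 75 in each direction is close to the background for higher values and below it for lower ones. Both LPS arrays lay above both untreated arrays for 11 members and below them for 21, and the arrays of 43 members overlapped. The corresponding shares over all genes were 19.7% above and 25.7% below. Differences beyond 0.20 in either direction were seen in 1 member (MRPS31) and in 10.7% of all genes. Of the cytosolic ribosomal and respiratory chain genes compared below, 0% and 2.94% differed that much. The members also had higher levels than genes in general, with a median of 11.15 untreated against 8.47.

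**Figure D1:**
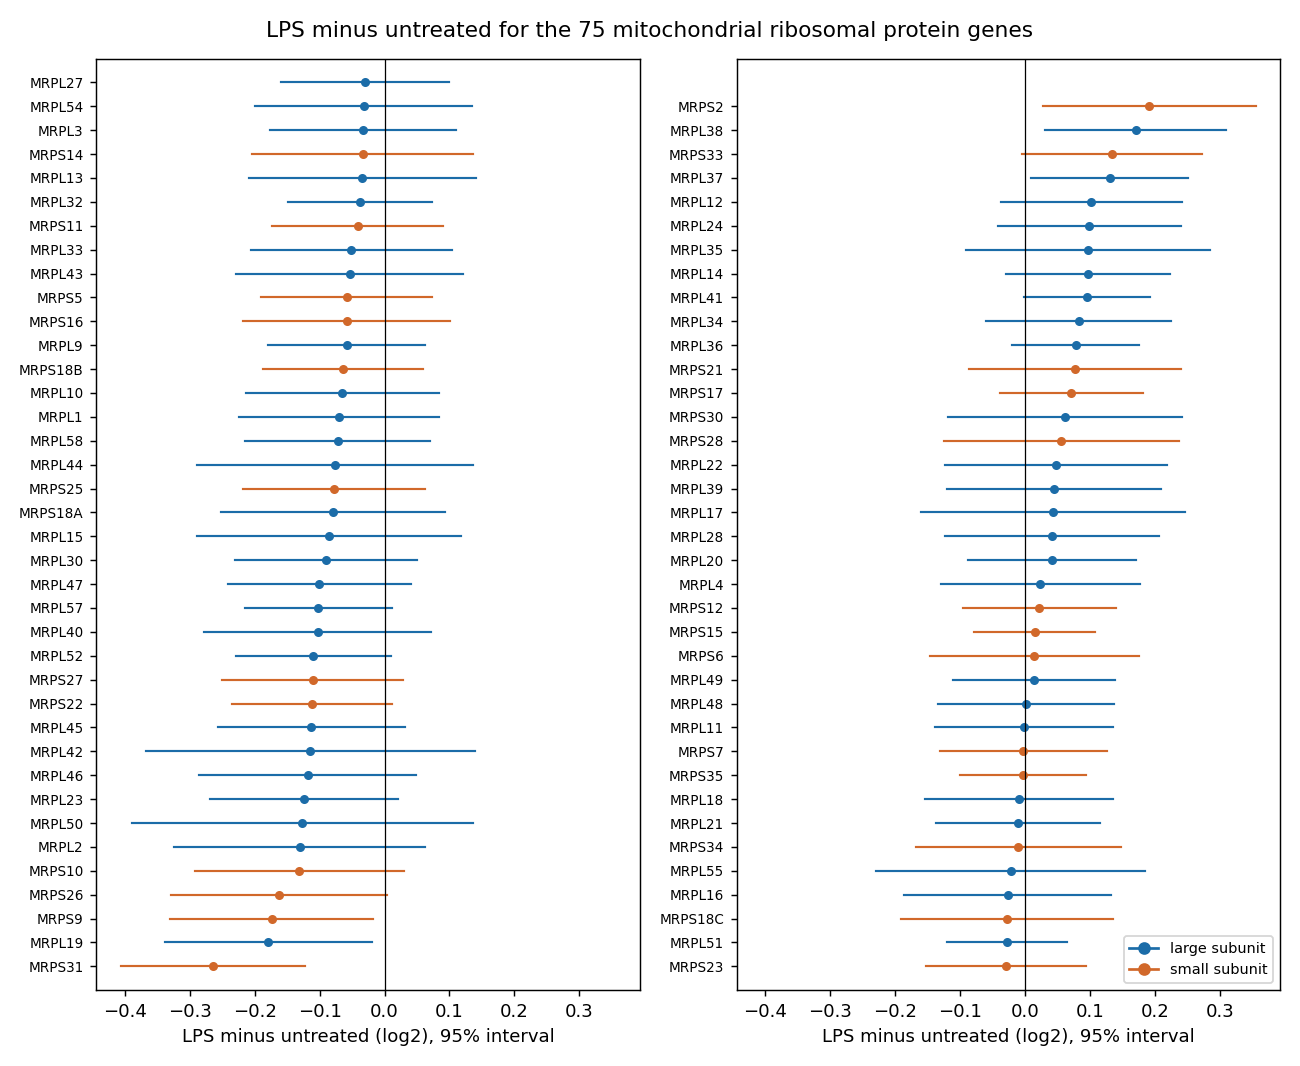
LPS minus untreated (horizontal axis, log2) for each of the 75 genes, ordered by value, with the lowest at the bottom of the left panel. Points are differences of means of 2 arrays, lines are 95% intervals of the limma fit, and colour gives the subunit; 6 intervals do not reach 0, and both subunits occur along the whole order.

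Among the members with lower values, MRPS31, a small subunit protein specific to mitochondria, lay at 11.07 and 11.05 untreated and at 10.83 and 10.76 with LPS. The groups did not overlap, and the difference was -0.26 (interval -0.41 to -0.12; limma adjusted p = 0.303), a ratio of 0.832. Another bright probe set of the gene differed by -0.18 and a faint one by 0.11, and the mean over its probe sets by -0.11. MRPS31 has copies of similar sequence in the genome, and these probe sets may not separate them. With 1 array left out the difference of MRPS31 stayed between -0.30 and -0.23.

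MRPL19, a large subunit protein with a bacterial counterpart at the subunit interface, lay at 11.69 and 11.61 untreated and at 11.55 and 11.40 with LPS (difference -0.18). Both LPS arrays were lower, but by little for the first of them, and 2 fainter probe sets differed by -0.039 and 0.19. MRPS9, the counterpart of bacterial S9 in the head of the small subunit, lay at 10.72 and 10.74 untreated and at 10.61 and 10.50 with LPS (difference -0.17). It had 1 probe set only, and its groups did not overlap.

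The next lower values were smaller than those of MRPS9 and did not reach an unadjusted p under 0.05. MRPS26, specific to mitochondria, differed by -0.16, against 0.13 on its other probe set. MRPS10, the counterpart of bacterial S10, differed by -0.13 and was lower on all 3 of its probe sets. MRPL2, the counterpart of bacterial L2 near the peptidyl transferase centre, differed by -0.13, with LPS replicate 1 at 10.30 and LPS replicate 2 at 10.50 against 10.53 on both untreated arrays. The difference of MRPL2 thus came mainly from 1 array, and it was -0.030 without LPS replicate 1. A fainter probe set of MRPL2 differed by -0.18.

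Among the members with higher values, MRPS2, the counterpart of bacterial S2, lay at 11.06 and 11.19 untreated and at 11.27 and 11.36 with LPS. The groups did not overlap, and the difference was 0.19 (interval 0.027 to 0.36; limma adjusted p = 0.388), a ratio of 1.14. MRPL38, a large subunit protein specific to mitochondria, lay at 10.86 and 10.83 untreated and at 10.99 and 11.03 with LPS. Its difference was 0.17 (interval 0.032 to 0.31; limma adjusted p = 0.367), and its fainter probe set differed by 0.092.

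MRPL37, also specific to mitochondria, lay at 11.55 and 11.56 untreated and at 11.67 and 11.70 with LPS (difference 0.13). MRPS33, a small protein of the small subunit, lay at 11.02 and 11.01 with LPS, above 10.91 and 10.85 untreated (difference 0.13). For both genes the arrays did not overlap, and neither passed in limma (adjusted p = 0.404 and 0.431).

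Proteins of functional sites of the ribosome were spread over both directions. MRPL12, which forms the mobile stalk that recruits translation factors and also binds the mitochondrial RNA polymerase, lay at 12.01 and 12.09 untreated and at 12.09 and 12.21 with LPS (difference 0.10, interval -0.037 to 0.24). MRPL10, which anchors that stalk, lay at 10.75 on both untreated arrays and at 10.72 and 10.65 with LPS (difference -0.065, interval -0.21 to 0.083). Stalk and anchor thus had values on opposite sides of 0, with both intervals including 0. MRPS12, the decoding centre protein whose bacterial counterpart is known from streptomycin resistance, differed by 0.022 (interval -0.096 to 0.14), and its 4 probe sets ran from -0.034 to 0.074.

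Around the exit of the nascent chain, MRPL23 differed by -0.12 (interval -0.27 to 0.021), against 0.15 on a faint second probe set. MRPL24, its neighbour at the tunnel exit, differed by 0.099 (interval -0.041 to 0.24), with LPS arrays at 10.76 on both and untreated arrays at 10.65 and 10.67. MRPL45, which holds the ribosome at the inner membrane, lay at 10.87 and 10.83 untreated and at 10.76 and 10.72 with LPS (difference -0.11, interval -0.26 to 0.031). These exit site proteins also lay on both sides of 0.

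MRPL44, which has a ribonuclease III-like fold, lay at 10.37 and 10.14 untreated and at 10.21 and 10.16 with LPS. Only the first untreated array stood apart, and the difference of -0.077 became 0.040 without it, and it was 0.19 on a fainter probe set. MRPL58, which can release stalled chains from the ribosome, differed by -0.072 (interval -0.21 to 0.070), and MRPS27, a pentatricopeptide repeat protein, by -0.11 (interval -0.25 to 0.029). MRPL41 differed by 0.095 on its brightest probe set, with both LPS arrays (12.79 and 12.84) above both untreated arrays (12.73 and 12.71), while its other 4 probe sets ran from -0.15 to 0.019.

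The members did not move evenly between the 4 arrays. Untreated replicate 1 was the highest of the 4 arrays for 48 of 75 members (64%), against 34.9% of all genes. It exceeded untreated replicate 2 in 63 of 75 members, with a median gap of 0.067, while over all genes the median gap was 0.0045. Untreated replicate 2, LPS replicate 1 and LPS replicate 2 were highest for 4, 7 and 16 members. Taken as a deviation from each gene's mean over the 4 arrays, the members had medians of 0.055 and -0.026 for the untreated pair, and of -0.019 and -0.0063 for the LPS pair. The median gap within the untreated pair was wider than the median difference between the groups given next.

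**Figure D2:**
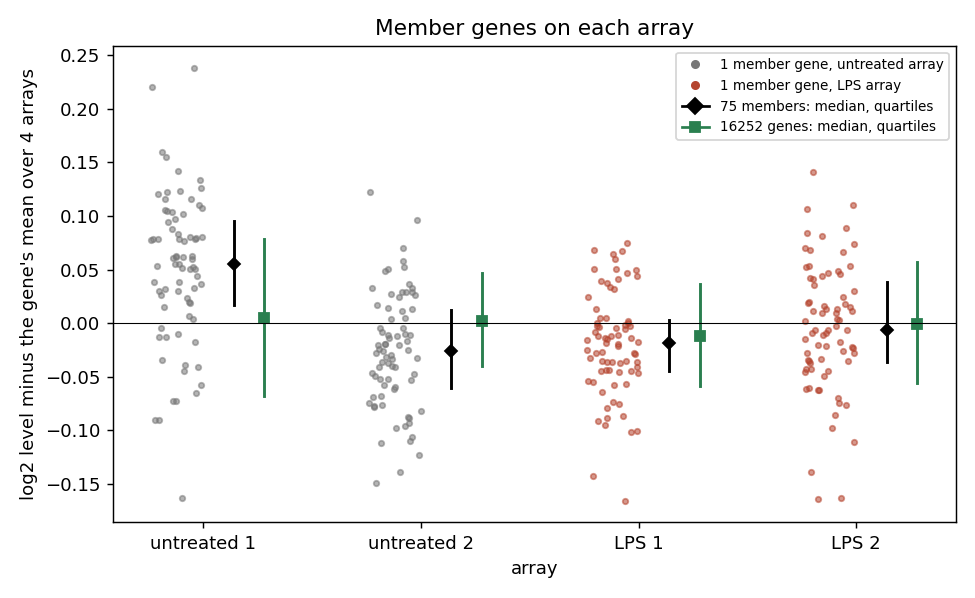
Deviation of each member from its own mean over the 4 arrays (vertical axis, log2) on each array. Points are the 75 members, diamonds and lines the median and quartiles of the members, squares and lines those of all 16252 genes; the members lie highest on untreated replicate 1 (median 0.055) and lowest on untreated replicate 2 (median -0.026).

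The median and the counts by sign moved with this array. The median difference over the 75 members was -0.030, against -0.0047 over all genes, and 49 members had values under 0 (65.3%, against 51.8% of all genes). Without untreated replicate 1 the median turned to 0.018 and 32 members had values under 0, while without untreated replicate 2 it was -0.069 with 57 under 0. Over all genes the median was -0.0056 without untreated replicate 1, with 52.2% under 0. It was -0.0067 without untreated replicate 2, with 51.8% under 0. The median also turned with the scaling of the arrays, to 0.0096 after quantile normalization (34 members under 0) and 0.011 after cyclic loess (33 under 0), where the medians of all genes were 0.013 and 0.010. Genes of high level were lower in general, with medians of -0.048, -0.049 and -0.029 in the 3 brightest of 10 equal bins of genes by level. These bins held 6, 37 and 31 members, with medians of -0.044, -0.051 and -0.028.

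**Figure D3:**
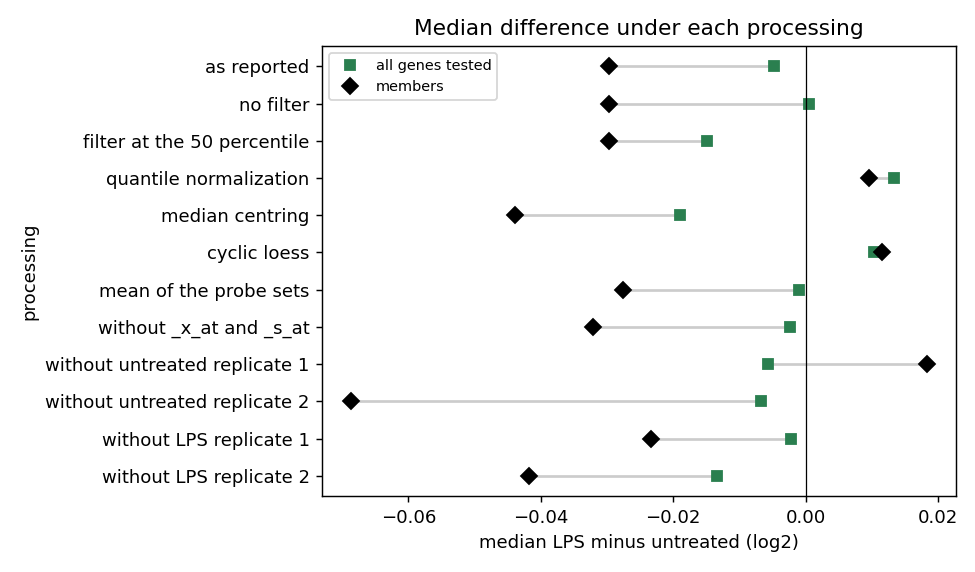
Median LPS minus untreated (horizontal axis, log2) over the members (diamonds) and over all genes tested (squares), as reported and under each alternative processing. The members' median lies above 0 in 3 of the 12 lines, namely after quantile normalization, after cyclic loess and without untreated replicate 1. With no filter and with the filter at the 50 percentile the members kept the same probe sets, so their median could not move there.

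By subunit the members differed little from each other. Of the 50 large subunit genes 32 had values under 0 (median -0.031), and of the 25 small subunit genes 17 (median -0.030), and both medians turned above 0 after quantile normalization (0.0088 and 0.014), after cyclic loess (0.011 for both) and without untreated replicate 1 (0.029 and 0.010). MRPS31 and MRPS2, the lowest and the highest member, both belong to the small subunit. Of the 28 mitochondria-specific genes 20 had values under 0 (median -0.065), and of the 45 with a bacterial counterpart 27 (median -0.027). Of the bacterial counterparts 38 lay within 0.10 of 0 (84.4%), and of the mitochondria-specific genes 13 (46.4%). The difference between these classes was not tested, and without untreated replicate 1 the medians were 0.0048 for the mitochondria-specific genes and 0.031 for the others. After quantile normalization they were -0.017 and 0.019, and after cyclic loess -0.018 and 0.020. The order of the classes turned without the _x_at and _s_at probe sets, where the median was -0.015 over 15 mitochondria-specific genes and -0.051 over 27 with a bacterial counterpart. The 29 genes with a GABP core had a median of -0.032 and the 38 without one -0.0026. For YY1 the medians were -0.051 with the motif (20 genes) and -0.028 without it, for NRF1 0.043 (9 genes) and -0.030, and for kappa B 0.097 (5 genes) and -0.031. For the E-box they were 0.078 (9 genes) and -0.034, and for the TATA box -0.0088 (3 genes) and -0.030. These differences were not tested.

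Several probe sets above the level filter were present for 34 members. In 16 of these all probe sets had values under 0, in 2 all had values above 0, and in 16 the signs were mixed. The median range between probe sets of the same gene was 0.14, of the size of the differences themselves. Over all 135 probe sets of members above the filter, 93 had values under 0, and in the limma fit over 38229 probe sets 0 passed (0.00785% of all probe sets did). Of the members' probe sets 4 with values above 0 and 11 with values under 0 had an unadjusted p under 0.05, against 3.69% and 8.02% of all probe sets.

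The widest differences came from fainter probe sets of genes that were singled out after their values were seen. A probe set of MRPS5, the counterpart of bacterial S5 near the mRNA entry, lay at 7.19 and 7.38 untreated and at 6.70 and 6.75 with LPS (difference -0.56; limma adjusted p = 0.172 over probe sets). The brightest probe set of MRPS5, at 11.12 on both untreated arrays and 11.05 and 11.07 with LPS, differed by -0.058. One of MRPS14, a counterpart of bacterial S14, lay at 8.46 and 8.32 untreated and at 8.04 and 7.82 with LPS (difference -0.46), against -0.034 on the brightest. One of MRPS25, specific to mitochondria, lay at 8.46 and 8.37 untreated and at 8.00 on both LPS arrays (difference -0.42; limma adjusted p = 0.187), against -0.077 on the brightest and 0.018 on the remaining one. In each of these 3 genes the groups did not overlap on the faint probe set. MRPL30 was lower on all 5 of its probe sets, from -0.21 to -0.090, and MRPL47 had opposite signs, with -0.10 on its brightest probe set and 0.26 on the other. Both of these genes were also picked after their values were seen.

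**Figure D4:**
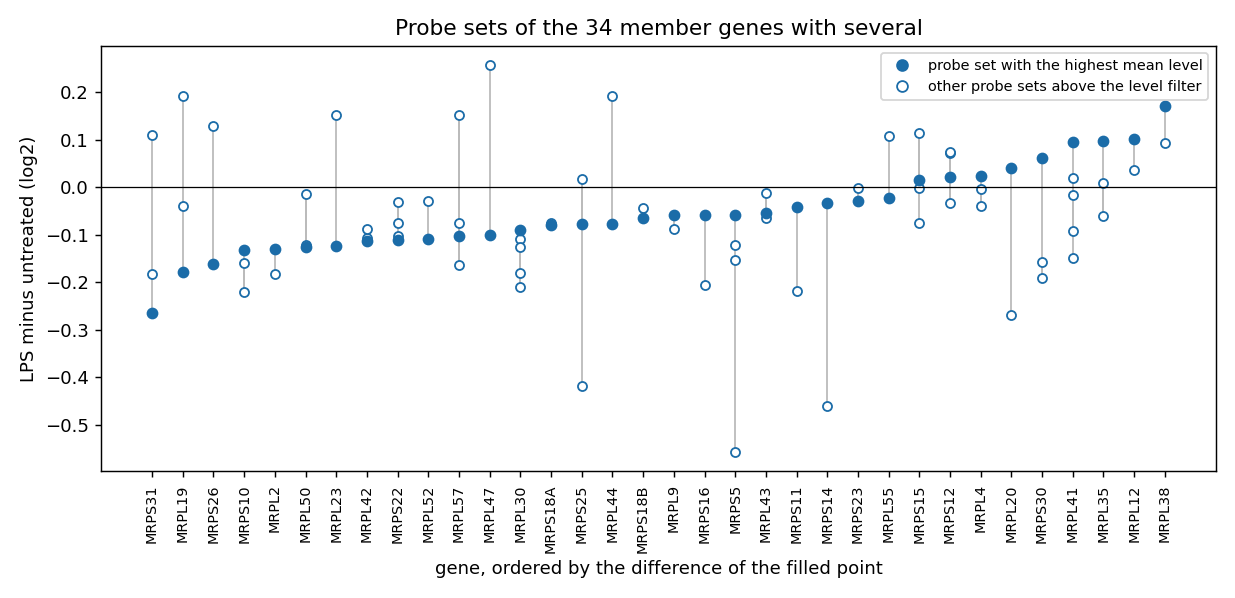
LPS minus untreated (vertical axis, log2) of every probe set above the level filter for the 34 members with several. Filled points mark the probe set with the highest mean level and open points the others; the faint probe sets of MRPS5, MRPS14 and MRPS25 reach -0.56, -0.46 and -0.42 while the filled points of these genes lie at -0.058, -0.034 and -0.077.

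Genes that act with the mitochondrial ribosome were compared as lists, and 0 members of any list passed in limma. Of the ribosomal proteins with other names 4 were measured, and only GADD45GIP1 (1 of 4) had an unadjusted limma p under 0.05. GADD45GIP1, a large subunit protein, lay at 11.14 and 11.10 untreated and at 10.97 and 10.98 with LPS (difference -0.14), and CHCHD1 by 0.058, with both LPS values above both untreated ones. Of 25 ribosome assembly factors 1 had a value above 0 and 2 had values under 0 at that p (median -0.035, which turned to 0.016 after quantile normalization, 0.012 after cyclic loess and 0.022 without the _x_at and _s_at probe sets). The rRNA methyltransferase TRMT61B differed by -0.21 and the helicase DHX30 by 0.23.

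Of 15 mitochondrial translation factors 12 had values under 0 (median -0.077), and 4 of these reached an unadjusted limma p under 0.05, while 0 with values above 0 did. Over all genes 51.8% had values under 0, and that p was reached with values under 0 by 7.91% and above 0 by 3.72%, which is the background for each list here. The initiation factor MTIF2, which places the initiator tRNA on the ribosome, lay at 10.34 and 10.26 untreated and at 9.99 and 9.95 with LPS. Its difference of -0.33 (interval -0.49 to -0.16; limma adjusted p = 0.285) was below that of every one of the 75 ribosomal protein genes. SLIRP, which stabilises mitochondrial mRNA, differed by -0.12. The median of this list was -0.038 after quantile normalization, -0.036 after cyclic loess and -0.038 without untreated replicate 1.

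Of 18 mitochondrial tRNA synthetases and amidotransferase subunits 13 had values under 0 and 1 of these an unadjusted limma p under 0.05. Their median of -0.036 was 0.0010 after quantile normalization. The isoleucine enzyme IARS2 differed by -0.18 and GATB by -0.17. Of 10 genes of mitochondrial DNA transcription and replication 7 had values under 0 and 1 of these reached that p (median -0.089, and -0.039 after quantile normalization). The polymerase subunit POLG2 differed by -0.19 and MTERF2 by -0.20. Of 8 regulators of mitochondrial biogenesis 0 reached it (median -0.0034, and 0.043 after quantile normalization). The coactivator PPRC1 differed by 0.13 and YY1 by -0.043.

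Set beside the other ribosome of the cell and the complexes that its products join, the 75 genes had a median between theirs as reported, an order that was lost under 4 alternatives given below. The 55 measured cytosolic ribosomal protein genes had a median difference of -0.0093 with 35 under 0, and the 68 respiratory chain genes a median of -0.046 with 46 under 0. Untreated replicate 1 was the highest array for 21 of the 55 and for 36 of the 68, against 48 of the 75 mitochondrial ribosomal genes. None passed in limma in either set, and unadjusted p-values under 0.05 were found for 4 cytosolic ribosomal genes above 0 and 6 under it, and for 4 respiratory chain genes above 0 and 14 under it. The shares over all genes were 3.72% above and 7.91% under 0 at that p, and 51.8% had values under 0. Without untreated replicate 1 the medians were -0.016 for the cytosolic ribosomal genes and -0.010 for the respiratory chain genes, after cyclic loess 0.0051 and -0.0072, and after quantile normalization -0.010 and -0.013. The median of the 75 genes lay above both in these 3 cases (0.018, 0.011 and 0.0096), and below both without untreated replicate 2 (-0.069, against -0.014 and -0.050). The sets also differed in median untreated level, at 14.38 for the cytosolic ribosomal genes, 12.69 for the respiratory chain genes and 11.15 for the 75 genes. The differences between the sets, and the part of level in them, were not tested.

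**Figure D5:**
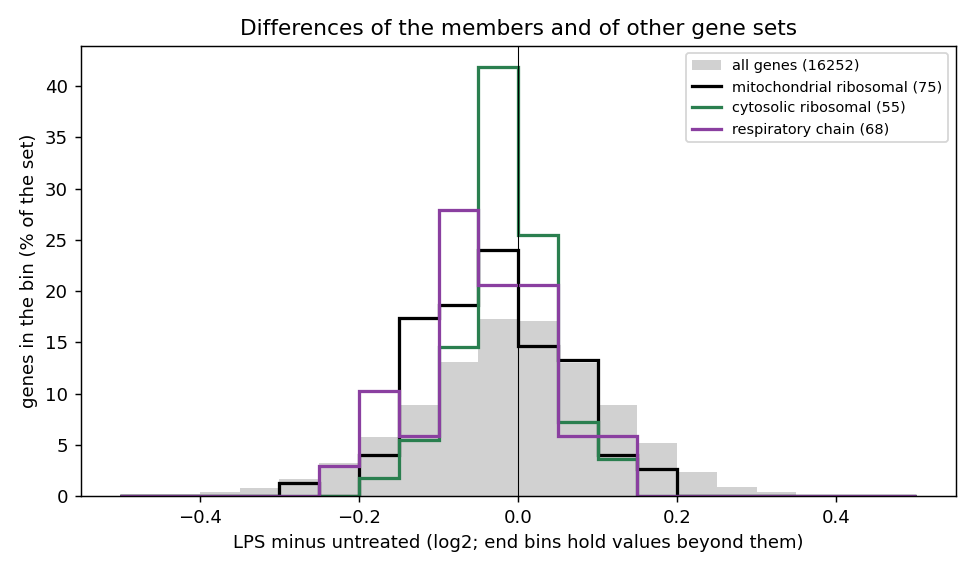
Share of genes (vertical axis, % of the set) by LPS minus untreated (horizontal axis, log2, bins of 0.05) for the 75 members, 55 cytosolic ribosomal genes, 68 respiratory chain genes and all 16252 genes (filled). The members lie between -0.26 and 0.19, inside the range of all genes, with 70.7% of them within 0.10 of 0 against 60.5% of all genes. For the cytosolic ribosomal genes this share was 89.1% and for the respiratory chain genes 75%.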

How the data were processed

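Gene expression was measured on 4 Affymetrix arrays, 2 of untreated and 2 of LPS-treated MKN45 cells, grouped by their labels. MAS5 and RMA are named, without roles or versions, by the submitters' processing notes. What the authors deposited are log2 levels, as judged from the values, with nearly equal distributions on all arrays, which would hide a shift common to all transcripts. A probe set's level also depends on its probes, so single genes were not ranked by level and the bins of genes by level are a rough grouping, and probe sets ending in _x_at or _s_at (45 of the 75 used) can bind transcripts of several genes.

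The 62 control probe sets were left out, and so were those whose mean lay under the 30 percentile (6.06), which left 38229. LPS minus untreated was fitted on them with limma 3.58.1 in R 4.3.3 (lmFit, eBayes with trend, two-sided, 7.06 degrees of freedom). P-values were adjusted by Benjamini-Hochberg over 16252 genes, each by its probe set with the highest mean, or over probe sets where stated. Names came from the platform annotation, and all 75 members matched RefSeq by Entrez identifier with 0 symbols changed. Probe sets naming a second gene were not used, which left out MRPS24 and MRPL53.

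Named members were those past the threshold, the 6 highest, the 6 lowest, the 6 with the smallest p, and 10 fixed genes of known function, of which MRPS36 was not analysed here. From each list the 2 genes with the smallest p were named where none passed. The members and lists were chosen with earlier results of these data known. The procedure was tested on simulated data with planted differences larger than that of any member on its brightest probe set. That test does not show what would be detected at the size of the members' differences. Alternatives were other filters, normalizations, variance models, probe set choices and a threshold of 0.1, the replicate block, and leaving out each array. The number of arrays limits the precision.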

Additional observations from a re-analysis of the deposited data

How the results depend on the processing

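In limma 0 of the members passed under all 16 alternatives, with smallest adjusted p-values of 0.117 (without untreated replicate 2) to 0.964 (without LPS replicate 2). The counts of all genes passing, 4 as reported, were 7 with the replicate block (5 higher, 2 lower) and 10 when the variance was moderated over genes only (5 higher, 5 lower), an alternative chosen after seeing the data, and 3 to 5 with 1 array left out. All 4 were higher as reported, against 5 higher and 1 lower with the mean of the probe sets and 3 higher and 1 lower without the _x_at and _s_at ones. The replicate numbers are not stated to mark shared experiments, replicate differences of the groups correlated at r = 0.154 over all probe sets and 0.379 over the members, and the block changed no call of a member (smallest adjusted p = 0.185). The median difference of the members, -0.030 as reported, was 0.011 after cyclic loess and -0.069 to 0.018 with 1 array left out. Of 233 values of the 20 named members under alternatives, 6 changed sign, in 4 genes (MRPL23, MRPL41, MRPL44 and MRPS12). Many of the 233 could not change, since the other filters and the replicate block left each named value as it was. For a gene with 1 probe set, the other choices of probe sets left it as it was too, where they kept it. With 2 arrays a group, differences under about 0.14 lie within the typical interval.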
